A study of Mus musculus with 4 samples.

Results

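The NRF2 targets and glutathione enzymes are 37 listed genes that make, recycle, use and export glutathione or detoxify electrophiles. They were followed in heart and muscle of mice with a heart/muscle-specific deficiency of the mitochondrial superoxide dismutase, MnSOD, and of floxed controls. All probe sets that the platform annotation pairs with 1 symbol of a listed gene were taken, which gave 58 probe sets for 35 of the 37 genes, of 18193 genes named on the arrays. G6pdx and Gsta1 had no such probe set and were not measured. RNA came from 4 sources with 1 oligonucleotide array each, heart and muscle of each of the genotypes called d/d and f/f. In d/d mice the MnSOD gene, Sod2, was deleted from floxed alleles by Cre under the muscle creatine kinase (MCK) promoter. The f/f controls carried the same homozygous floxed alleles, so both genotypes share the loxP sites, and the labels do not say whether f/f mice also carried the Cre transgene. Since the MCK promoter drives Cre in striated muscle cells, the other cells of these tissues are not its target. Age, sex, the muscle sampled and any pooling of animals are likewise not stated in the labels.

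NRF2, the product of Nfe2l2, is a transcription factor that KEAP1 holds in the cytoplasm and marks for degradation. Oxidants and electrophiles modify KEAP1, NRF2 then accumulates, pairs with small MAF proteins and binds antioxidant response elements in its target genes. Its best known targets make glutathione, supply NADPH and conjugate or reduce reactive compounds. Glutathione peroxidases use glutathione to reduce the hydrogen peroxide that superoxide dismutases produce, and glutathione transferases attach it to electrophiles.

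Each deposited value was an intensity, here called the signal after scaling the arrays to 1 mean. Signals under a floor of 7.51 were set to it, and a fold against such a signal is a lower bound. A gene was represented by its brightest probe set and counted as different at 2-fold or more, while 1.5-fold chose the members whose values are given on every array. With 1 array per group there is no error between animals, so each genotype difference describes a pair of arrays and has no test. As a technical scale, probe sets of one gene scattered around each other's log2 difference with an SD of 0.437 in heart and 0.469 in muscle. Of the 35 members, 30 were above the floor on all 4 arrays, 34 on 2 or more, and Slc7a11 on 1.

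The arrays had 58.0% to 61.1% of probe sets above the floor, and the ratio of 3' to 5' Gapdh control signal ran from 0.847 to 0.899. Cardiac and skeletal muscle markers matched the labelled tissues, with 8 of 8 cardiac markers higher in heart and 11 of 11 skeletal markers higher in muscle in f/f mice. Sod2 read 1927 in d/d heart, 2330 in f/f heart, 1733 in d/d muscle and 1668 in f/f muscle on its brightest probe set. All 4 of its probe sets were lower in d/d heart, from -1.22 to -0.21, the widest on a dim one at 29.2 against 67.8, and 3 of 4 were lower in d/d muscle, from -0.44 to -0.14. Their place relative to the deleted part is unknown here. Heart arrays also differed in markers of other cells. There 9 of 10 fibroblast markers were higher in d/d, with a summed signal of 11939.8 against 6473, and 10 of 12 macrophage markers, at 3037 against 2282. Of all genes 45.4% were higher in d/d heart. In muscle the same lists were lower in d/d, with 10 of 10 fibroblast markers (4622 against 7307) and 12 of 12 macrophage markers (887 against 1375) below f/f. Of all genes 50.4% were lower there. Among these macrophage markers Cd14 was level, at 25.4 on both muscle arrays, and Itgam was at the floor in d/d muscle. In these bulk samples, fewer cells of a type and less RNA per cell cannot be told apart.

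Promoter sequences are shown for 6 members that differed by 1.5-fold or more in d/d heart, those of Nqo1, Akr1b8 and Ugdh, which were higher there, and those of Gstk1, Gstm2 and Gstp1, which were lower. Each covers 250 bases before to 50 bases from the annotated start, from RefSeq on GRCm38.p6: Nqo1 at chr8:107403156-107403455 (minus strand), Akr1b8 at chr6:34353896-34354195 (plus), Ugdh at chr5:65435793-65436092 (minus), Gstk1 at chr6:42245685-42245984 (plus), Gstm2 at chr3:107986371-107986670 (minus) and Gstp1 at chr19:4037863-4038162 (minus). Capitals mark matches, on either strand, to TGACNNNGC, the core of the antioxidant response element, or to TGANTCAGC, a form shared with AP-1 sites. A sequence that reads TGACTCAGC matches both patterns, as in Me1.
Nqo1: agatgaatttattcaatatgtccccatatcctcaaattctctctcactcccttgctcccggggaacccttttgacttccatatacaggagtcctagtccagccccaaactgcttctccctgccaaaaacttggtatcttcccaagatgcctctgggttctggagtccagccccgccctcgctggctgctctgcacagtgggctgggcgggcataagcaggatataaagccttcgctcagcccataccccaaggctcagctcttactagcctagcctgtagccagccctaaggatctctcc
Akr1b8: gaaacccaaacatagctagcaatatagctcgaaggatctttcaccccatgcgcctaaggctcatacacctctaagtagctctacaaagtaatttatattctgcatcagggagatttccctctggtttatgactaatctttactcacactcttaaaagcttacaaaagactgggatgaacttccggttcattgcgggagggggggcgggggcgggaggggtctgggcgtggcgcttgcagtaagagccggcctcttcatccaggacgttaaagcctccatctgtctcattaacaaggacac
Ugdh: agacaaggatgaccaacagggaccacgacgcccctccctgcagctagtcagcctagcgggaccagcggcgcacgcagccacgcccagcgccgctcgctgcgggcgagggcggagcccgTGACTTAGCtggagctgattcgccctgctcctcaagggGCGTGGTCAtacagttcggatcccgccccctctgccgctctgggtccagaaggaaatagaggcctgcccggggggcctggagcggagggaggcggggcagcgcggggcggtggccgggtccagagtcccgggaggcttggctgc
Gstk1: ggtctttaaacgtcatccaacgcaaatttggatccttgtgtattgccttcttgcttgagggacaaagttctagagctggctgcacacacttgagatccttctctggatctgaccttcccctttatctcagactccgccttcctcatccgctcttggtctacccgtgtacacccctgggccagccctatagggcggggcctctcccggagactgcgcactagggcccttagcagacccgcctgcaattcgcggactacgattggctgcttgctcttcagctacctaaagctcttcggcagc
Gstm2: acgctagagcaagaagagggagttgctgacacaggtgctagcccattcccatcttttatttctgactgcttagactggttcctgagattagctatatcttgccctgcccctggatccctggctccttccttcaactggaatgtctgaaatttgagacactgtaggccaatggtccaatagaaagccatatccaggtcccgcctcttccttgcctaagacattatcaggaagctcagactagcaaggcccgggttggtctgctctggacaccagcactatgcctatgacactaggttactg
Gstp1: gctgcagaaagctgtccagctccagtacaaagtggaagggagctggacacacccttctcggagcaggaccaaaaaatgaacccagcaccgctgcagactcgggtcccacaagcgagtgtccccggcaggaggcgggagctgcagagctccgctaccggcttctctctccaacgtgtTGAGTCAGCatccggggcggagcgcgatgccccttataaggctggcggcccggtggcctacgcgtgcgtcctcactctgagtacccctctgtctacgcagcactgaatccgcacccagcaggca

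Ugdh held 2 matches to TGACNNNGC and Gstp1 held 1 to TGANTCAGC, while the other 4 windows held neither. Of all 32851 windows in the table, 12.4% held TGACNNNGC and 1.19% held TGANTCAGC. Among the 32 members with an entry, 8 held the first in at least 1 window (G6pdx, Gclm, Gsta3, Gstm5, Me1, Mgst1, Pgd and Ugdh), against 14.0% of all genes, and 2 held the second (Gstp1 and Me1), against 1.37%. Of the members 1.5-fold or more higher in d/d heart, 1 of the 6 with an entry held TGACNNNGC, and of the 3 that were lower 0 did. Gclc, Gsr, Hmox1, Gsta4 and Abcc1 have no entry. A match of letters is a description and not a binding site.

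In heart the listed members differed in direction by role, with the transferases joined over their classes after their values were seen. Of the listed enzymes that handle quinones, haem, carbonyls and epoxides, 6 of 7 had higher signals in d/d than in the f/f control, as did 4 of 4 peroxidases, and 10 of the 12 listed glutathione transferases had lower ones. Most of these differences were under 2-fold. Over all 35 members the median log2 difference was 0.04, with 18 above and 17 below 0, against a median of -0.05 over all 13836 genes measured. Gstk1 alone passed 2-fold, on the low side, and 0 members passed it on the high side, where 4.22% and 3.94% of all genes did. At 1.5-fold, 8 members (22.9%) were higher and 3 (8.57%) lower, against 11.2% and 13.3% of all genes. The directions of these role groups in heart were the same on the values as deposited and after quantile normalization.

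**Figure D1:**
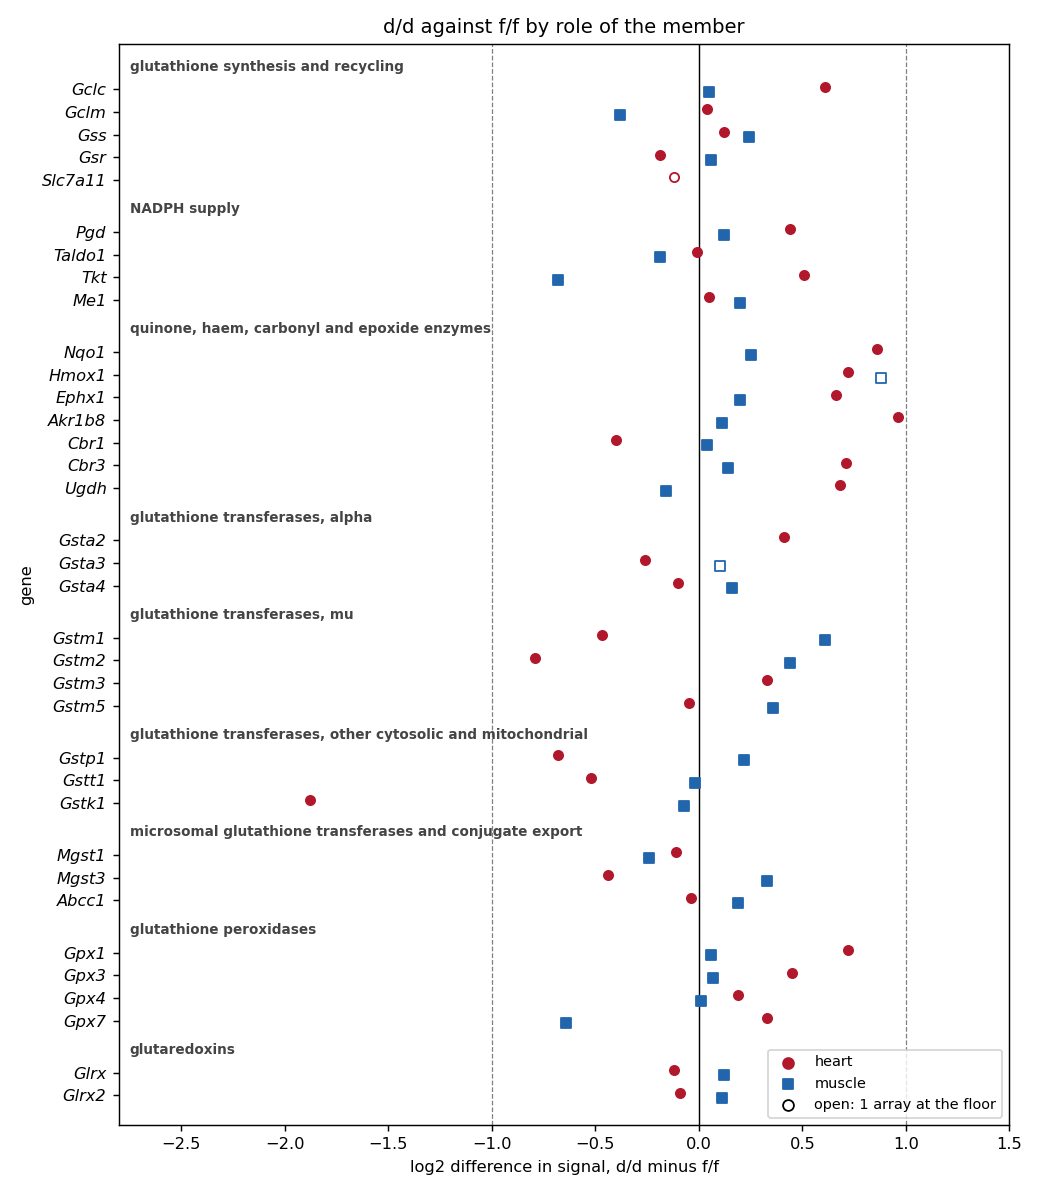
Log2 difference in signal between d/d and f/f (horizontal axis) for the members grouped by role (vertical axis), with heart as red circles and muscle as blue squares. Open symbols have 1 array at the floor, members at the floor on both arrays have no symbol, and dashed lines mark 2-fold; in heart 6 of the 7 quinone, haem, carbonyl and epoxide enzymes lie right of 0 and 10 of the 12 glutathione transferases left of it.

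Of the 7 quinone, haem, carbonyl and epoxide enzymes, 6 were 1.5-fold or more higher in d/d heart, and the median was 0.71. The part of the higher fibroblast and macrophage marker signal in these differences was not tested. Nqo1, a quinone reductase used as an indicator of NRF2 activity, read 262 in d/d heart, 144 in f/f heart, 80.6 in d/d muscle and 67.6 in f/f muscle. It was highest in d/d heart and lowest in f/f muscle. The fold was 1.82 in heart and 1.19 in muscle. Akr1b8, an aldo-keto reductase that reduces reactive aldehydes, read 122, 62.7, 29.1 and 26.9 in the same order of arrays. Its heart signals lay 1.94-fold apart, just short of the 2-fold mark, while the muscle signals were 1.08-fold apart.

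Hmox1, which breaks down haem, was dim, at 35.4 in d/d heart, 21.5 in f/f heart, 13.8 in d/d muscle and 4.01 in f/f muscle, the last under the floor. It was the one member of the 35 that was 1.5-fold or more higher in d/d in both tissues, at 1.65-fold in heart and at least 1.84-fold in muscle. Hmox1 is also abundant in macrophages; the macrophage markers were higher in d/d heart and lower in d/d muscle, and their part in the Hmox1 difference was not tested. Ephx1, the microsomal epoxide hydrolase, read 393 against 248 in heart, 1.58-fold higher, and 179.8 against 156.5 in muscle, 1.15-fold higher. Cbr3, a carbonyl reductase, read 55.0 against 33.6 in heart and 30.5 against 27.7 in muscle. Its heart difference was 1.64-fold and its muscle difference 1.10-fold.

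Ugdh makes UDP-glucuronate, the sugar donor for glucuronidation. Its heart signals were 132 in d/d and 82.5 in f/f, and its muscle signals were 75.2 in d/d and 84.1 in f/f. Only the d/d heart array stood apart, 1.60-fold above f/f heart, and the other 3 arrays lay close together. Cbr1, a second carbonyl reductase, went the other way from Cbr3 in heart, at 92.3 against 122, with a log2 difference of -0.40. In muscle Cbr1 read 96.4 and 93.9.

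**Figure D2:**
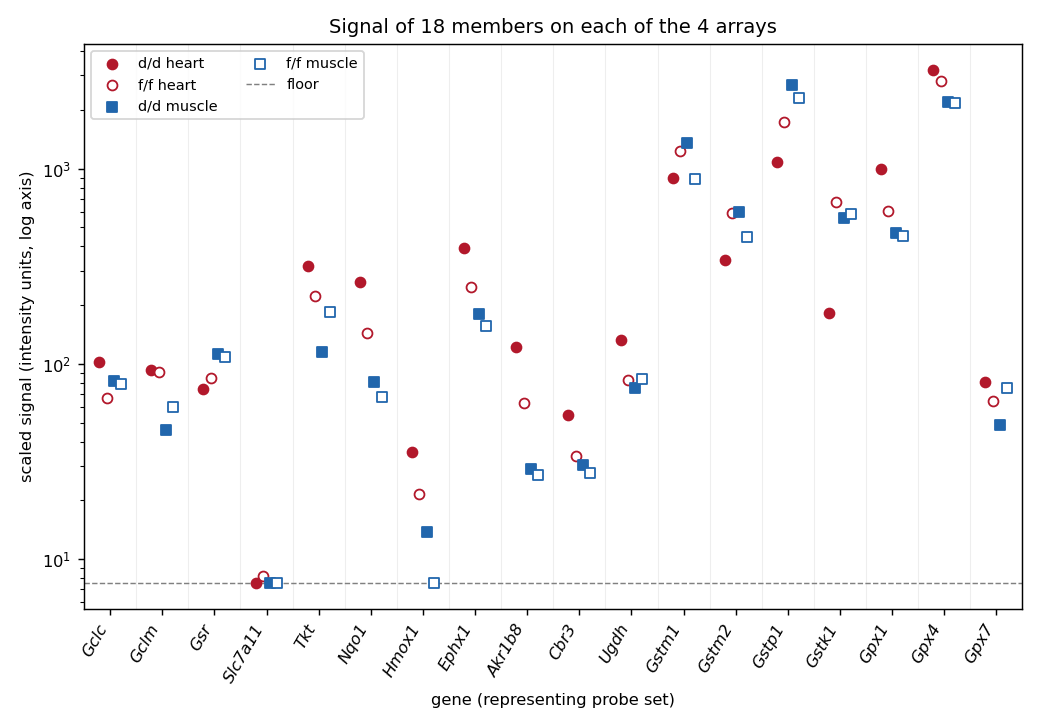
Scaled signal on a log axis (vertical) for the 18 members with values given on every array (horizontal), with d/d filled, f/f open, heart as circles and muscle as squares, 1 array each; the dashed line is the floor of 7.51. Nqo1, Akr1b8, Cbr3, Ugdh and Gpx1 have their highest signal in d/d heart, and Gstk1 and Gstm2 their lowest there.

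Glutathione is made in sequential steps by glutamate-cysteine ligase, whose catalytic subunit is Gclc and whose modifier subunit is Gclm, and by glutathione synthetase, Gss. Gclc read 102 in d/d heart, 66.7 in f/f heart, 81.4 in d/d muscle and 78.7 in f/f muscle. It was 1.53-fold higher in d/d heart and 1.03-fold higher in d/d muscle, and a dimmer probe set gave 1.30-fold and 1.35-fold. Gclm read 93.3 and 90.5 in heart and 46.1 and 60 in muscle, d/d first. Its difference was 0.04 in heart and -0.38 in muscle, where a dimmer probe set, at 12.1 against 28.0, gave -1.21. On its brightest probe set Gclc differed more in heart than in muscle, and on the dimmer one it did not.

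Gss lay within 0.24 in both tissues. Gsr, which returns oxidised glutathione to its reduced form, read 74.2 in d/d heart, 84.9 in f/f heart, 112 in d/d muscle and 108 in f/f muscle. The 2 genotypes were close in each tissue, with log2 differences of -0.19 and 0.06. Slc7a11, the cystine importer, passed the floor on the f/f heart array alone, at 8.16, against 1.06 in d/d heart, 0.61 in d/d muscle and 0.573 in f/f muscle. It was thus at least 1.09-fold lower in d/d heart, and its other probe set was under the floor on every array.

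The pentose phosphate enzymes and the malic enzyme, listed together as NADPH supply, had a median of 0.24 in heart and -0.03 in muscle. In heart 3 of 4 lay above 0, where 45.4% of all genes did, with Me1 at 0.05. Tkt, a transketolase of the pentose phosphate pathway, read 317 in d/d heart, 223 in f/f heart, 115 in d/d muscle and 185 in f/f muscle. It was 1.42-fold higher in d/d heart and 1.61-fold lower in d/d muscle. The muscle difference was not shared by a second probe set, at 53.2 against 56.2 (-0.08), whereas the heart difference was 0.46 on that probe set. Pgd, which yields NADPH in the same pathway, differed by 0.44 in heart and 0.12 in muscle. Taldo1 and Me1, the malic enzyme of the cytosol, lay within 0.20 in both tissues.

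All 4 listed glutathione peroxidases lay above 0 in d/d heart, where 45.4% of all genes did, with a median of 0.39, but Gpx1 alone reached 1.5-fold, and Gpx4 and Gpx7 lay within the spread between probe sets. Gpx1, the main cytosolic and mitochondrial form, read 993 in d/d heart, 604 in f/f heart, 468 in d/d muscle and 449.7 in f/f muscle. Its d/d heart signal was 1.64-fold above f/f, and the muscle signals were 1.04-fold apart. Gpx4, which reduces lipid hydroperoxides in membranes, read 3211 and 2813 in heart and 2186 and 2175 in muscle, d/d first. Its difference of 0.19 in heart, the same on both probe sets, was under the 0.437 spread between probe sets. Gpx3, the secreted form, differed by 0.45 in heart and 0.07 in muscle. Gpx7, an endoplasmic reticulum form, read 81.2 and 64.5 in heart and 48.6 and 75.6 in muscle, and was 1.26-fold higher in d/d heart and 1.56-fold lower in d/d muscle. Fibroblast marker signal was also higher in d/d heart and lower in d/d muscle, and its part in the Gpx7 values was not tested.

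The listed glutathione transferases were lower in d/d heart in 10 of 12 cases, with a median of -0.35. Of all genes 54.6% were below 0, and of genes in the top quartile of signal 53.7% were. The transferase classes were joined after these values were seen, so the shares beside them are a description and no test. The 2 that were higher, Gsta2 and Gstm3, were near the floor, at 16.6 against 12.5 and at 10.9 against 8.67. Gstk1, the kappa-class enzyme of mitochondria and peroxisomes, read 182 in d/d heart, 671 in f/f heart, 559 in d/d muscle and 589 in f/f muscle. Its d/d heart signal stood far below the other 3, which lay close together. The difference was -1.88 in heart, 3.68-fold, and -0.07 in muscle. Gstk1 has 1 probe set, so this value has no second probe set beside it.

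Gstm2, a mu-class enzyme, had heart signals of 342 in d/d and 591 in f/f, and muscle signals of 601 in d/d and 444.5 in f/f. It was 1.73-fold lower in d/d heart and 1.35-fold higher in d/d muscle. Gstm1, another mu-class enzyme, read 891 and 1235 in heart and 1349 and 883 in muscle, d/d first. Thus it was 1.39-fold lower in d/d heart and 1.53-fold higher in d/d muscle, and its other 3 probe sets had the same directions, from -1.65 to -0.53 in heart and from 0.33 to 1.47 in muscle. The widest of these came from a probe set of 39.0 or less on every array, at the floor in f/f muscle. Mu-class genes are close in sequence and their probes may share signal, so Gstm1 and Gstm2 are not fully separate measurements. Gstm5 lay close in heart, at -0.05, and differed by 0.36 in muscle.

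Gstp1, the pi-class enzyme, read 1076 in d/d heart, 1727 in f/f heart, 2674 in d/d muscle and 2302 in f/f muscle. Both muscle arrays were above both heart arrays, and d/d heart was the lowest, 1.61-fold under f/f heart. Gstt1, of the theta class, differed by -0.52 in heart and -0.02 in muscle. Mgst3, a microsomal enzyme, read 1654 against 2247 in heart and 2337 against 1853 in muscle (-0.44 and 0.33). Mgst1, its outer membrane relative, differed by -0.11 and -0.24, and Gsta4, which conjugates lipid aldehydes, by -0.10 and 0.16. Gsta3, a dim alpha-class relative, differed by -0.26 in heart and by at least 0.10 in muscle, where f/f was at the floor. Abcc1, which exports glutathione conjugates, differed by -0.04 in heart on its brightest probe set and by 0.97 on a dimmer one, at 57.4 against 29.2, so its direction is unsettled. The glutaredoxins Glrx and Glrx2, which reduce protein-glutathione disulphides, lay within 0.12 in both tissues on the representing probe sets, while another probe set of Glrx2, at 57.2 against 100.6, differed by -0.81 in heart.

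In muscle the members differed less between genotypes. Of the 32 measured there, 24 were above 0 and 8 below, with a median of 0.11 against -0.00 over all 14256 genes. At 2-fold 0 members passed on either side, where 2.64% of all genes were higher and 3.25% lower. At 1.5-fold Hmox1 and Gstm1 were higher (6.25% of members, 9.06% of all genes) and Tkt and Gpx7 lower (6.25% and 10.8%). Counts above 0 move with the scaling for members and for all genes alike: on the values as deposited the median of all genes was -0.09, with 5271 above and 8146 below 0 instead of 7078 and 7178. Members other than glutathione transferases then split 11 to 11, against 17 above and 5 below after scaling and 16 above and 6 below after quantile normalization. The peroxidases, at a median of 0.03, had 3 of 4 above 0 after scaling, 2 of 4 after quantile normalization and 0 of 4 as deposited. Glutathione transferases in muscle were above 0 in 7 of 10 after scaling and in 6 of 9 as deposited.

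Set side by side, the heart and muscle pairs, which share no array, showed 7 of the 10 glutathione transferases measured in both tissues lower in d/d heart and higher in d/d muscle. That combination was found in 27.4% of all 12711 genes. As the transferases were grouped after their values were seen, this share is a description and no test. The other 3, Gstt1, Gstk1 and Mgst1, were lower in both. Gsta2 and Gstm3, the listed transferases that were higher in d/d heart, were at the floor on both muscle arrays and so are not among the 10. Gsta3, among the 7, read 8.06 in d/d muscle, just above the floor, and was at the floor in f/f muscle. Of the 22 other members, 12 were higher in both tissues (54.5%, against 21.8% of all genes) and 5 had the pattern of the transferases. The 12 included Gclc, Gpx1, Gpx3 and Gpx4, at 0.01 to 0.07 in muscle, and Me1, at 0.05 in heart. On the values as deposited each of these fell below 0, so this count moves with the scaling. Gstk1 had the widest gap between the tissues' differences, at -1.81, followed by Gstm2 at -1.23, Tkt at 1.19 and Gstm1 at -1.08. With 1 array per group the gaps have no test.

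**Figure D3:**
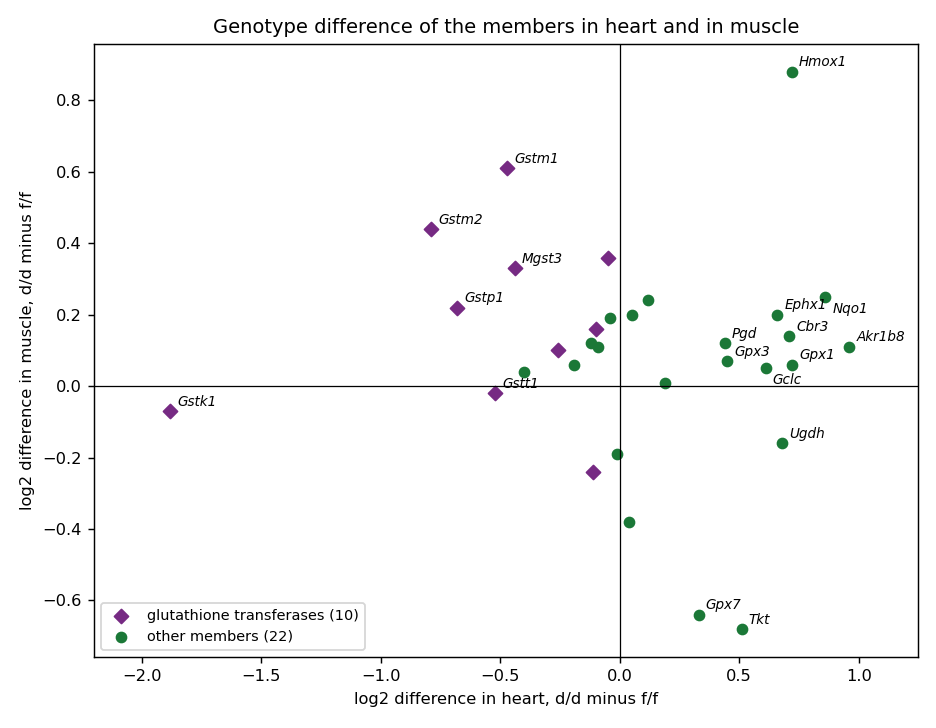
Log2 difference between d/d and f/f in heart (horizontal) against that in muscle (vertical) for the 32 members measured in both tissues, with glutathione transferases as purple diamonds and other members as green circles. All 10 diamonds lie left of 0, 7 of them also above 0 on the vertical axis, and 16 members lie right of 0. Gsta2 and Gstm3, which were higher in d/d heart, were at the floor on both muscle arrays and have no symbol.

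A fit of genotype over both tissues, with tissue as a block (limma, 13497 genes, Benjamini-Hochberg adjustment), called 0 members and 0 genes in all (0.0%). The lowest adjusted p was 0.9998. At an unadjusted p under 0.05 it held 570 genes, 4.22% of all, with Hmox1 the 1 member among them. The f/f muscle signal of Hmox1 was set to the floor, so its muscle difference in this fit is a lower bound and depends on the floor. The fit leaves 1 residual degree of freedom and counts any difference between the tissues as error. The labels do not say whether heart and muscle of a genotype came from the same mouse, so its p-values measure only the spread between these arrays.

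Heart and muscle were compared within each genotype. In f/f mice 6 members were 2-fold or more higher in heart than in muscle and 0 lower, where 12.1% and 8.3% of all genes were. In d/d mice 12 were higher and 3 lower, where 15.1% and 10.5% were. At 1.5-fold the counts were 11 higher and 1 lower in f/f (24.5% and 17.9% of all genes) and 16 higher and 7 lower in d/d (26.1% and 21.9%). On the values as deposited the count was 10 higher and 0 lower in f/f and 17 higher and 1 lower in d/d, with the median of all genes moved from 0.08 to 0.47 and from 0.01 to 0.45. The 6 that were higher in f/f heart were Gsta4, Hmox1, Gsta3, Mgst1, Akr1b8 and Nqo1, with log2 differences from 1.09 to 1.86, and all were also 2-fold or more higher in d/d heart. Endothelial and macrophage markers were also higher in heart, while the fibroblast count in f/f mice lay near the share of all genes. Among the other lists in f/f mice, measured red cell (3 of 3), neutrophil and lymphocyte markers (2 of 3 each) were mostly above 0. Smooth muscle (2 of 5, median -0.31) and adipocyte markers (1 of 3, median -0.54) were mostly below it. In f/f mice 8 of 8 endothelial (median 1.01), 10 of 12 macrophage (0.68) and 6 of 10 fibroblast markers (0.38) were above 0. The share over all genes was 54.4%, and 4 fibroblast markers were lower, Col1a1 and Col1a2 most, at -2.11 and -2.07. In d/d mice 7 of 8 (0.95), 12 of 12 (1.67) and 10 of 10 (1.39) were above 0, against 50.7% of all genes. The part of these markers in the members' differences was not tested. Cardiac markers were not absent from f/f muscle, with a summed signal of 668 against 227 in d/d muscle and 36028 in f/f heart.

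**Figure D4:**
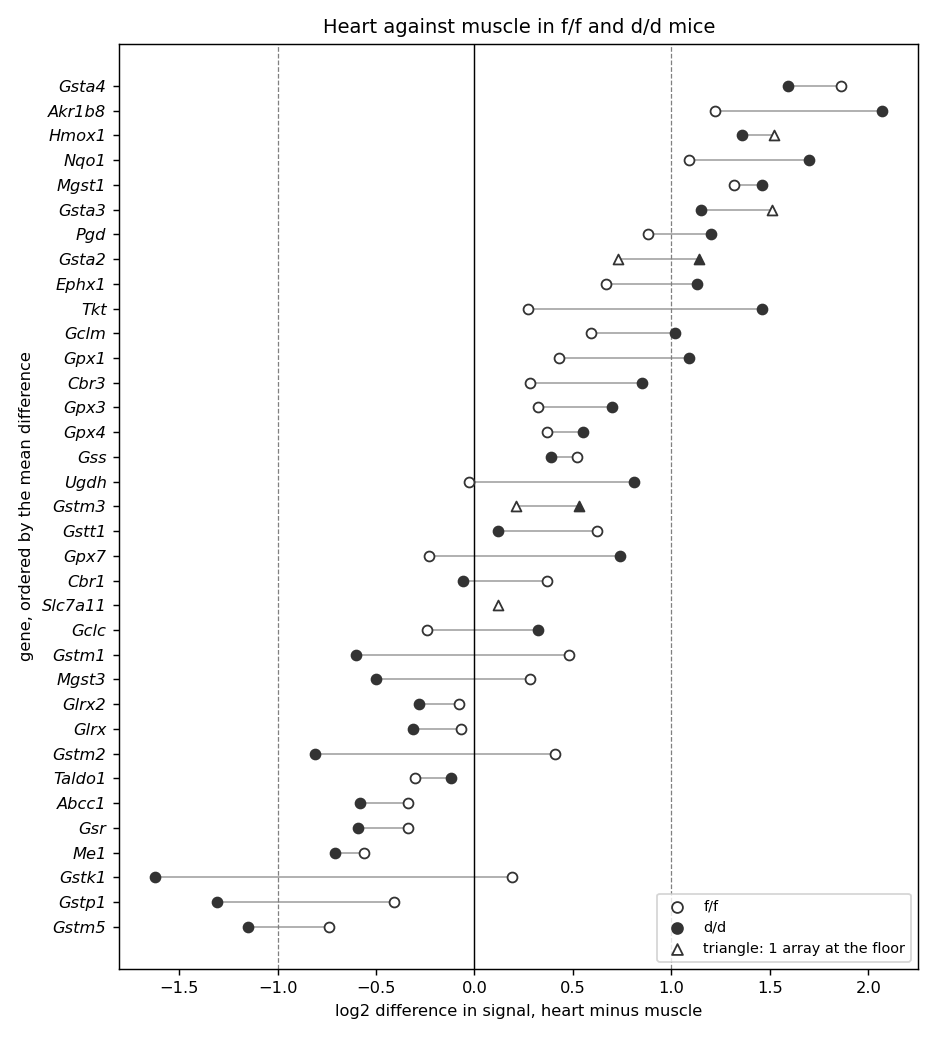
Log2 difference in signal between heart and muscle (horizontal) for 35 members ordered by their mean difference (vertical), with f/f open and d/d filled, 1 pair of arrays each. Triangles have 1 array at the floor and dashed lines mark 2-fold. Gstk1, Gstm1, Gstm2, Mgst3 and Cbr1 lie right of 0 in f/f and left of it in d/d.

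With genotype as a block, limma called 6 of 34 members higher in heart (7.97% of all genes were) and 0 lower (5.66%). The same 6 genes passed. Gsta4 differed by 1.72 (SE 0.27; limma adjusted p = 0.0165), Akr1b8 by 1.64 (SE 0.32; limma adjusted p = 0.0287), Mgst1 by 1.39 (SE 0.26; limma adjusted p = 0.0276) and Nqo1 by 1.40 (SE 0.29; limma adjusted p = 0.0351), each higher on both heart arrays than on both muscle arrays. Hmox1 and Gsta3 were also called, with f/f muscle at the floor. All 6 calls ended with the floor at the 20th percentile or with no filter on low signals, where 0 members passed, and on the values as deposited 11 members were called.

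Some members lay on opposite sides in the 2 genotypes. Gstk1 was 0.19 higher in heart than in muscle in f/f mice and lower by 1.62 in d/d mice. The difference of Gstm2 was 0.41 in f/f and -0.81 in d/d, that of Gstm1 0.48 and -0.60 and that of Mgst3 0.28 and -0.50. Cbr1, a carbonyl reductase, lay at 0.37 and -0.06. In the other direction, Gclc lay at -0.24 and 0.32, Ugdh at -0.03 and 0.81, and Gpx7 at -0.23 and 0.74. Each pair of values uses all 4 arrays, so these shifts restate the genotype differences given above.

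Of the 11 genes listed as NRF2 regulators, 1 was 2-fold or more higher in d/d heart (9.09%, against 3.94% of all genes) and 0 lower (4.22% of all genes). Maff, a small MAF partner of NRF2, read 59.0 in d/d heart, 26.5 in f/f heart, 8.79 in d/d muscle and 15.3 in f/f muscle. It was 2.23-fold higher in d/d heart and 1.75-fold lower in d/d muscle, on low muscle signals. Nfe2l2 itself read 403 and 361 in heart and 288.5 and 255 in muscle, 0.16 and 0.18 higher in d/d. Keap1, its repressor, differed by -0.15 in heart and 0.14 in muscle, and Bach1, a repressor of Hmox1, by 0.04 and 0.08. These 3 regulators lay within the spread between probe sets on their representing probe sets, while a dimmer probe set of Bach1 differed by -0.32 in heart and 0.50 in muscle.

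Of 14 other NRF2 target genes on the arrays, 11 were measured in heart, where 2 were 2-fold or more higher (18.2%, against 3.94% of all genes) and 0 lower, and 9 lay above 0 (81.8%, against 45.4%). Of these 9, Blvrb, Idh1, Cat, Blvra, Abcc4 and Slc3a2 lay within the spread between probe sets, at 0.04 to 0.35. Another probe set of Idh1 differed by -0.62. Ptgr1, a reductase of prostaglandins and reactive alkenals, read 48.6 and 21.3 in heart and 24.7 and 39.4 in muscle, d/d first. It was 2.28-fold higher in d/d heart and 1.60-fold lower in d/d muscle. Srxn1, a sulfiredoxin that restores overoxidised peroxiredoxins, was the other, at 99.2 against 49.5 in heart and 63.8 against 60.3 in muscle, 2.01-fold and 1.06-fold. A pair of its other probe sets were 2.82-fold and 2.27-fold higher in d/d heart, and a dim one, at 6.10 against 14.6, was at least 1.95-fold lower. Of 19 other glutathione genes, 18 were measured in heart, with 7 above and 11 below 0, and 1 was 2-fold or more lower (5.56%, against 4.22% of all genes): Gstm7, a further mu-class transferase, at 70.0 against 197, with 19.9 and 23.5 in muscle. Its fold in heart was 2.82, and a dim probe set, at the floor in d/d heart, at 6.10 against 14.8, also read lower there (at least 1.97-fold) but higher in d/d muscle (0.78). Transferases of this list did not all lie below 0 in heart. Gsto1, of the omega class, read 1256 against 888 there, 1.41-fold higher, and its other probe set was 1.58-fold higher. Gstt3, of the theta class, was 1.65-fold higher, at 28.2 against 17.1, and Gstz1 was level at 67.9 against 68.0. Gstm4, Gstt2 and Mgst2 lay at -0.23, -0.47 and -0.35. These 6 were named after their values were seen. In muscle 40 genes of the 3 lists were measured. Of these 0 were 2-fold or more higher and 1 was lower, where 2.64% and 3.25% of all genes were. The lower one was Mgst2, at least 2.07-fold on signals of 1.22 and 15.6.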

How the data were processed

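RNA of d/d and f/f heart and muscle was measured on 1 oligonucleotide array each, grouped by title and tissue label. Per the file headers and values, the authors deposited linear intensities for 45101 probe sets, 64 of them controls; the software and scaling behind them are not given in the sources used here. Each array was scaled to the mean of the 4 arrays' 2% trimmed means and floored at the mean 40th percentile before log2. Names came from the platform annotation, with symbols looked up by Entrez id in a RefSeq table (34741 found, 0 changed); 34945 had 1 symbol, 932 had several and 9160 are unnamed here, and only the first kind was used. Genes above the floor on 1 array of a comparison count as measured there, so such a gene differs by construction.

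The fits across all genes used limma 3.58.1 in R 4.3.3 on the genes that passed the floor on 2 or more arrays, called at an adjusted p of 0.05. On simulated data for the tissue fit (13497 genes, 10 simulations) 0.2% of genes with a set log2 change of 1 were recovered. At changes of 1.5, 2 and 3 these were 15.2%, 69.0% and 93.8%. For the genotype fit the 4 shares were 0.4%, 13.8%, 60.2% and 91.8%. The simulated noise was independent between arrays and not floored, and a set genotype change was the same in both tissues. In the data a genotype difference that varies between tissues counts as error, so these shares may not hold for the genotype fit. Values are given on all arrays for members 1.5-fold or more different between genotypes and for Nqo1, Gclc, Gclm, Slc7a11, Hmox1, Gsr, Gpx1 and Gpx4 whatever their values (G6pdx, also in that rule, was not measured), with other probe sets where they lay over 1.5-fold off; of the pathway lists, genes 2-fold different and Nfe2l2, Keap1 and Bach1 are named. Sequence windows came from RefSeq on GRCm38.p6. Members, lists and rules were chosen with earlier results of these data known. The members named between tissues, and the union of the transferase classes, were chosen after their values were seen. Alternatives changed the floor, the scaling, the choice of probe set and the filter. The number of arrays limits the precision.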

Additional observations from a re-analysis of the deposited data

How the results depend on the processing

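In heart, the counts of members past 1.5-fold and 2-fold and the median stayed within 1.5 times and within the spread between probe sets under all 6 alternatives, and 10 transferases lay below 0 in each, except after dropping shared-sequence probe sets, where 9 of 10 did. In muscle, members 2-fold or more higher went from 0 to 1 at a floor of the 20th percentile, and those 1.5-fold or more higher from 2 to 4 there and to 1 under each of the other 5 alternatives (floor at the 60th percentile, no scaling, quantile normalization, median over probe sets, dropping shared-sequence probe sets). Those 1.5-fold or more lower went from 2 to 1 without shared-sequence probe sets, where Tkt was at -0.08. Between tissues without scaling, f/f heart had 10 members 2-fold higher instead of 6, 22 at 1.5-fold higher instead of 11 and 0 at 1.5-fold lower instead of 1 (2 with the median over probe sets), and d/d heart had 1 at 2-fold lower instead of 3 and 3 at 1.5-fold lower instead of 7. The tissue fit called 0 members higher at the lower floor (20th percentile) and 0 with no filter, 11 without scaling, and 1 member lower, Gstm5, at the higher floor. Of 384 single values of members under alternatives, 377 moved by less than the spread between probe sets and 0 called values reversed. Gstk1 in heart was the only genotype difference of a member called at 2-fold, so the last count says little. Values near 0 did change side, such as Abcc1 in heart (-0.1 to 0.46) and Gclc in muscle (-0.04 to 0.24). The labels give no replicate numbers, so no replicate block was fitted; the fits across tissues block on tissue or genotype. Leaving out an array was not run, since it leaves no genotype comparison in that tissue and no residual degree of freedom in the fits. Dim members (Slc7a11, Gsta2, Gsta3, Gstm3, Hmox1 in muscle) are limited by the floor.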
